A study of Homo sapiens with 12 samples.

Results

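The cytosolic ribosomal protein genes code for the protein parts of the ribosome that translates messenger RNA in the cytoplasm. The members were the rows of the table whose symbol, looked up from the Ensembl identifier, reads RPL or RPS and a number (with A, X or L endings) or is RPLP0, RPLP1, RPLP2 or RPSA, with RPL36A left out and a mean over the 12 libraries of 1 FPKM or more (FPKM, fragments scaled by transcript length and by the mapped total of the library). This gave 80 members, 32 of the small and 48 of the large subunit, among 20345 rows, of which 11225 passed the same limit and were tested. RPL10L, RPL3L and RPL39L were named by the rule but stayed below the limit, with means of 0.469, 0.125 and 0 FPKM.

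RNA was measured in HGC-27 cells, a human gastric cancer line, in 4 groups of 3 libraries: WT without treatment, WT with GLUP peptide, TEAD4KO without treatment and TEAD4KO with GLUP peptide. GLUP is a ring-shaped peptide carrying repeated TEAD4-binding elements derived from VGLL4, a cofactor that represses TEAD transcription factors, and was designed to draw TEAD4 molecules together. The labels mark the TEAD4KO groups by genotype. The other groups are set apart by titles that begin with NC, which was read here as WT. The labels give the untreated groups no agent, and give neither a dose nor a time. The study's methods for RNA sequencing of HGC-27 cells with GLUP name the peptide's stock buffer as the negative control and speak of biological replicates, but mention no TEAD4KO cells. How the knockout cells were made, and whether they are 1 clone, was not given in the sources used here. The labels do not say whether the 3 libraries of a group came from separate cultures, and p-values measure the spread between these libraries.

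TEAD4, the gene named as knocked out, was checked first. Its level was 25.8, 24.4 and 25.01 FPKM in the untreated WT libraries and 23.7, 22.9 and 23.8 with GLUP, against 30.1, 27.7 and 27.2 in the untreated libraries labelled TEAD4KO and 27.8, 29.4 and 26.02 with GLUP. All 6 libraries labelled TEAD4KO were thus above all 6 WT libraries, which goes against the label at the level of RNA, and every direction below is a difference between libraries so labelled. A gene level does not show whether a protein is made. Of 5 epithelial markers, EPCAM, KRT18 and KRT19 were at or near 0 (at most 0.169, 0.290 and 0.046 FPKM), while CDH1 ran from 2.04 to 3.68 and KRT8 from 3.78 to 9.13 FPKM. Of 4 genes known from fibroblasts, COL1A1, DCN and LUM lay between 48.6 and 304 FPKM in all 12 libraries and COL1A2 between 4.93 and 9.80. CD3E and CDH5, of T cells and endothelium, were at 0 in each. Of other immune markers PTPRC ran from 0.110 to 0.276 and CD14 from 0.102 to 0.703 FPKM, and endothelial VWF reached at most 0.044 FPKM. Total FPKM ran from 375361 to 384477 in the WT libraries and from 397321 to 423757 in those labelled TEAD4KO. Rows at 0 ran from 21.1% to 22.3% in WT and from 23.7% to 25.5% in TEAD4KO. Neither measure overlapped between genotypes. Results with totals without the members set equal are given below, and the cause of the differences was not tested. Mitochondrially encoded transcripts made up 15.7% to 19.5% of the total. Sequencing depth is unknown, since the table holds no counts.

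As background, a ribosome holds 1 copy of nearly every ribosomal protein, while the stalk proteins RPLP1 and RPLP2 are present in several copies. Their genes are among the most strongly transcribed of dividing cells, and many of them are accompanied in the genome by processed pseudogenes. Most of their messenger RNAs start with a C followed by a run of pyrimidines, the terminal oligopyrimidine (TOP) tract, through which mTORC1 and LARP1 control their translation and stability. Introns of many members host small nucleolar RNAs, which guide the modification of ribosomal RNA. Several members also act outside the ribosome: RPL5 and RPL11 bind MDM2 and thereby hold up p53, RPS27A is made as a fusion with ubiquitin, and RPS6 is the classical substrate of S6 kinase.

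The annotated starts show this shared feature and its exceptions. Each line gives 15 bases before and 15 bases from the start of the canonical GENCODE transcript, read from GRCh37 in the 5′ to 3′ direction of the gene, with a tract of C and at least 4 further pyrimidines in capitals. The first group holds members with large called TEAD4KO differences and the stalk protein RPLP0, which was not called. Of these, RPL13 lies at chr16:89627075-89627104 (plus strand), RPS15 at chr19:1438380-1438409 (plus), RPLP1 at chr15:69745142-69745171 (plus), RPL13A at chr19:49990850-49990879 (plus), RPS28 at chr19:8386365-8386394 (plus), RPL18 at chr19:49122421-49122450 (minus) and RPLP0 at chr12:120638900-120638929 (minus).
RPL13: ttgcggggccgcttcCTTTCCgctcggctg
RPS15: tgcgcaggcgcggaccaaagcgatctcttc
RPLP1: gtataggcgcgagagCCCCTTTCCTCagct
RPL13A: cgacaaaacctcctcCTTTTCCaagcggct
RPS28: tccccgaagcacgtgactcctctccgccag
RPL18: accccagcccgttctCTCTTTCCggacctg
RPLP0: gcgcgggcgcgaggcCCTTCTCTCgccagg
The second group holds members that were lower in untreated TEAD4KO libraries without passing the test: RPL23 at chr17:37009960-37009989, RPL37 at chr5:40835310-40835339, RPS29 at chr14:50053084-50053113 and RPL39 at chrX:118925579-118925608, all on the minus strand.
RPL23: cttttttcttttttccggcgttcaagatgt
RPL37: tagcggaagtgccttCTCTTCCggtctttc
RPS29: tgcgtgggccagcttCTTCCTTTTacctcg
RPL39: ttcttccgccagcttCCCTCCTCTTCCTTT
The third group sets paralogues beside their parent genes: RPL22 at chr1:6259641-6259670 (minus), RPL22L1 at chr3:170587970-170587999 (minus), RPL26 at chr17:8286497-8286526 (minus), RPL26L1 at chr5:172386412-172386441 (plus), RPS27 at chr1:153963223-153963252 (plus), RPS27L at chr15:63449662-63449691 (minus) and RPL7L1 at chr6:42847339-42847368 (plus).
RPL22: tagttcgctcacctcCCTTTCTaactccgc
RPL22L1: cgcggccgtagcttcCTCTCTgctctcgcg
RPL26: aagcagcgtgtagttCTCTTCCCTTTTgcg
RPL26L1: gcggcacggaaactcacttccggccctgcg
RPS27: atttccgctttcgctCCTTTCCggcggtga
RPS27L: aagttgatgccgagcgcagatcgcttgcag
RPL7L1: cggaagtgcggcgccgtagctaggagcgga
Of the paralogues, RPL22L1 keeps a tract of 6 bases, while RPL26L1, RPS27L and RPL7L1 have none at the annotated start. RPS15, RPS28 and RPL23 have none either, although pyrimidine runs stand within the printed window of each, and a start placed a few bases away could change this.

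Over all 80 members, 58 (72.5%) start with such a tract, with a median length of 8 and a longest run of 19 bases. The share is 5.80% of the 10914 tested protein-coding rows that have an annotated start, and 4 of 76 (5.26%) for the mitochondrial ribosomal protein genes, which code for the separate ribosome of that organelle. Small nucleolar RNAs lie in 29 members (36.25%), 60 of them in all, against 2.72% of tested protein-coding rows. Members have short transcripts, with a median over genes of 755.5 bases against 2668 for tested protein-coding rows, while their median GC content of 49.0% (39.6% to 62.4%) was close to the 48.9% of those rows. In the 250 bases before to 50 bases after the start, CATTCC, the core letters of the TEAD motif, stood on either strand in 6 of 80 members (7.50%), among them RPL26L1, RPL38, RPL6 and RPS27A, against 9.59% of all such windows. CCGGAA, a core of ETS family motifs such as that of GABPA, stood in 47 members (58.75%) against 32.1%, and ATGGCG, part of the YY1 motif, in 28 (35%) against 20.7%. The window holds 50 transcribed bases, and whether an ATGGCG there fell on a start codon was not recorded. The reverse complement of CCGGAA can overlap CATTCC by 4 letters. It can also be formed by the end of a TOP tract and the bases after it, as in the printed starts of RPL18, RPL37 and RPS27. The share with CCGGAA is therefore not independent of the share with a tract. How many of the 47 members have the motif only in this way was not counted.

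The members filled the top of the expression range. Their median level over genes was 538 FPKM, against 10.5 FPKM for all rows tested, and 48 of the 100 highest rows were members. RPS2 was the highest at a mean of 2451 FPKM over the 12 libraries, followed by RPL41 at 1914, and RPL12 at 1217 and RPL13A at 1132 were also among the highest. The lowest were RPS27L at 7.61, RPL22L1 at 30.2, RPL7L1 at 75.3, RPL26L1 at 122 and RPL9 at 133 FPKM. All but RPL9 of these 5 are paralogues of another member, and no member was at 0 in any library. Levels are per length as deposited. How reads shared with pseudogenes and paralogues were assigned was not given in the sources used here, so the order of members is uncertain to that extent.

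Summed over all members, the level was 43913, 45842 and 42699.7 FPKM in untreated WT libraries and 43357, 44468 and 40287 in WT libraries with GLUP. It was 47380.4, 58631 and 51996 in untreated libraries labelled TEAD4KO and 52623, 54262 and 44986 in those with GLUP. Without treatment all 3 TEAD4KO sums were above all 3 WT sums. With GLUP this held too, but TEAD4KO replicate 16 was only just above the highest WT library. As a share of all FPKM the members took 11.5, 11.97 and 11.3% and 11.4, 11.6 and 10.7% in WT, and 11.9, 13.8 and 12.6% and 12.7, 12.9 and 11.2% in TEAD4KO, each pair without and with GLUP, and the shares of the genotypes overlapped in both treatments. The small subunit made up 41.0% to 41.6% of the sum in every library. FPKM is relative to the mapped total of a library, so the amount of this RNA per cell cannot be read from these sums. Bulk RNA also does not show how the level is spread over cells.

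**Figure D1:**
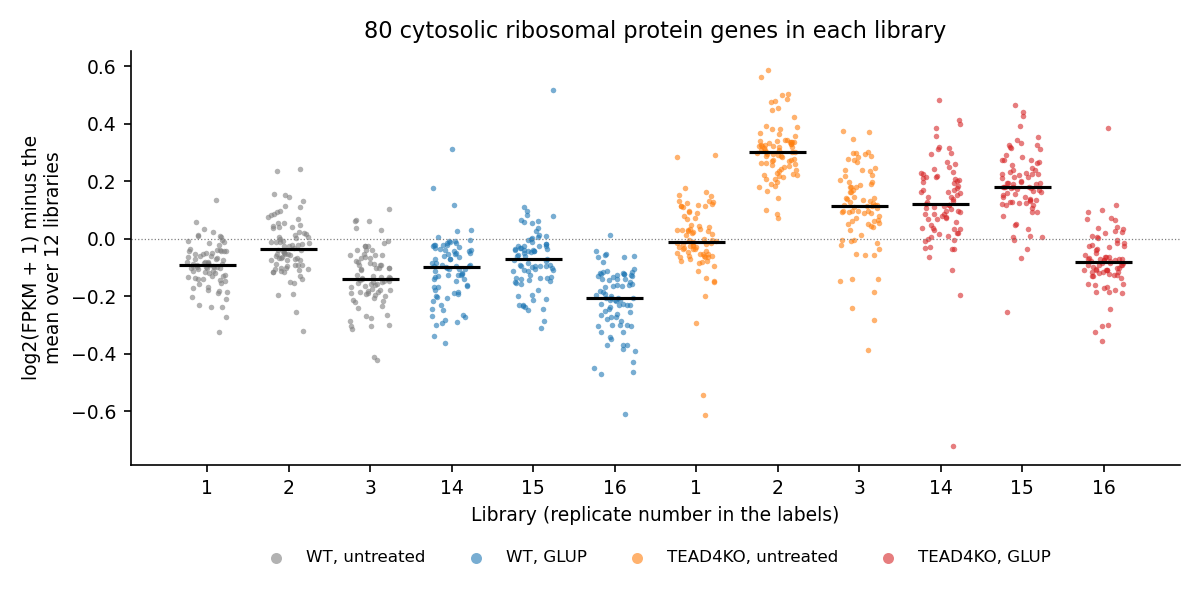
Each point is 1 of the 80 members in 1 library, as log2(FPKM + 1) minus that member's mean over the 12 libraries, with libraries on the horizontal axis by replicate number, colours for the 4 groups and a black bar at the median. The medians run from -0.21 in WT with GLUP replicate 16 to 0.30 in TEAD4KO untreated replicate 2, and TEAD4KO with GLUP replicate 16 lies at -0.08, within the range of the WT libraries.

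The first question was how the members differed between libraries labelled TEAD4KO and WT. In these comparisons a gene that rose or fell was higher or lower in TEAD4KO than in WT libraries, without or with GLUP. Without treatment 13 members rose (adjusted p under 0.05, limma with Benjamini-Hochberg adjustment over all 11225 rows) and 0 fell. The 17 members that rose in at least 1 of the 2 TEAD4KO comparisons include the stalk proteins RPLP1 and RPLP2, RPL8, RPL13, RPL13A and RPL29 of the large subunit, and RPS10, RPS15, RPS19, RPS26 and RPS28 of the small one, all 11 of which rose in both. Rises were moderate, from 1.21-fold (RPS19) to 1.61-fold (RPL13) without treatment. The background over all rows was 5.42% called in either direction and 4.92% called higher. Of the 80 members 75 had a positive difference, against 48 of 80 under quantile normalization and 64 of 80 where totals without the members were set equal, and their median was 0.22 on the log2 scale against 0.023 for all rows. No member passed a fold change over 2 as well (background 0.0356%). The count depended on single libraries, from 1 member without WT untreated replicate 3 to 38 without TEAD4KO untreated replicate 1.

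With GLUP present in both genotypes 15 members rose and 0 fell, against a background of 5.84% called and 4.91% called higher. With the replicate number as a block, 29 rose (background 6.76%). The numbers were taken as pairs for the GLUP libraries, though 14 and 15 are not shown to be pairs. The same fit also blocked the untreated libraries, whose numbers are not shown to be pairs, and shared 1 estimate of spread. Of the members 74 had a positive difference, against 40 of 80 under quantile normalization and 57 of 80 with equal totals without members, and the median was 0.20 against -0.0039 for all rows. Again no member passed the fold limit (background 0.0535%). Leaving out 1 library gave 4 members (without TEAD4KO with GLUP replicate 14 or 15, or WT with GLUP replicate 16) to 38 (without TEAD4KO with GLUP replicate 16). The 2 comparisons rest on separate libraries, though on 1 shared estimate of spread. Of the members that rose, 11 did so in both, 84.6% of those without and 73.3% of those with GLUP; RPL10 and RPL18 passed without and not with GLUP, and RPS2, RPS20, RPL7A and RPL26L1 with and not without it. The test of the difference between these comparisons (the interaction) called no member. Both subunits were represented, with 5 of 32 small and 8 of 48 large subunit members called without GLUP, and 7 and 8 with it.

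RPL13, a large subunit protein, had the largest difference without treatment. Its level was 255, 252 and 224 FPKM in untreated WT libraries and 367, 446 and 371 in untreated TEAD4KO libraries. With GLUP it was 238, 243 and 220.5 in WT and 386, 396 and 327 in TEAD4KO. Every TEAD4KO value was above every WT value. The log2 difference was 0.69 ± 0.09 (SE, n = 3 per group; limma adjusted p = 0.00223) without and 0.65 ± 0.09 with GLUP (adjusted p = 0.00217). RPL13 was the one member that passed in all 12 fits that each left out 1 library in both comparisons. RPS15, a small subunit protein near the decoding centre, stood at 513, 540.4 and 466 FPKM in untreated WT and 689.6, 932 and 789 in untreated TEAD4KO libraries. With GLUP the values were 482, 508 and 447 and 817, 841 and 648. The groups did not overlap, and the log2 differences were 0.66 ± 0.12 (limma adjusted p = 0.00710) and 0.67 ± 0.12 (adjusted p = 0.00510).

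Among the stalk proteins, which recruit translation factors to the ribosome, RPLP1 read 666, 707 and 629 FPKM in untreated WT and 851, 1074 and 928 in untreated TEAD4KO libraries. With GLUP the WT values were 647, 646 and 585 and the TEAD4KO values 952, 939 and 745. TEAD4KO was higher throughout, by 0.51 ± 0.10 (limma adjusted p = 0.0151) and 0.48 ± 0.10 (adjusted p = 0.0163) on the log2 scale. RPLP2, its partner in the stalk, rose by 0.34 ± 0.09 and 0.35 ± 0.09 (limma adjusted p = 0.0375 and 0.0338). RPLP0, the base of the stalk and a common reference gene for quantitative PCR, read 1020.0, 993 and 907 FPKM in untreated WT and 1058, 1357 and 1418 in untreated TEAD4KO libraries. With GLUP its values were 920.4, 1076 and 846 and 1232, 1359 and 1121. Its groups did not overlap in either comparison, but with log2 differences of 0.38 ± 0.12 and 0.39 ± 0.12 it missed the threshold (limma adjusted p = 0.0761 and 0.0693). With the replicate block RPLP0 passed with GLUP (adjusted p = 0.0332). After the correction for GC content and length described below it did not pass with GLUP (limma adjusted p = 0.0997), nor with that correction and the block (limma adjusted p = 0.0825).

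Other large rises were those of RPL8, a conserved protein of the large subunit, from 603, 616 and 569 to 767, 919 and 809 FPKM without and from 568, 584 and 529.8 to 844, 855 and 697 with GLUP, and of RPL13A, which also takes part in translational silencing of inflammatory transcripts, from 948, 1043 and 919 to 1168, 1525 and 1315 and from 909, 937 and 889 to 1386, 1355 and 1188. Neither gene's groups overlapped. The log2 differences were 0.48 ± 0.09 and 0.50 ± 0.09 for RPL8 (limma adjusted p = 0.00919 and 0.00553), and 0.45 ± 0.10 and 0.52 ± 0.10 for RPL13A (adjusted p = 0.0158 and 0.00700). RPS28 is a small protein at the exit of the messenger RNA channel. With GLUP it read 172, 176 and 159 FPKM in WT and 272, 261 and 213 in TEAD4KO libraries. The log2 difference was 0.55 ± 0.11 (limma adjusted p = 0.0117). RPL18 read 364, 319.8 and 295 in untreated WT and 447, 447 and 449 FPKM in untreated TEAD4KO libraries, the latter nearly equal to each other, and rose by 0.46 ± 0.10 (adjusted p = 0.0224). RPS2, the highest member, read 1965, 2166 and 1796 FPKM in WT libraries with GLUP and 3014, 2926 and 2381 in TEAD4KO libraries with GLUP. TEAD4KO was higher by 0.49 ± 0.10 on the log2 scale (limma adjusted p = 0.0153). RPS19, the member most often mutated in Diamond-Blackfan anaemia, read 173 ± 12.1 and 210.2 ± 17.03 FPKM without and 160.4 ± 1.90 and 206 ± 14.3 with GLUP (mean ± SD, n = 3, WT first), and rose in both (limma adjusted p = 0.0414 and 0.0133).

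**Figure D2:**
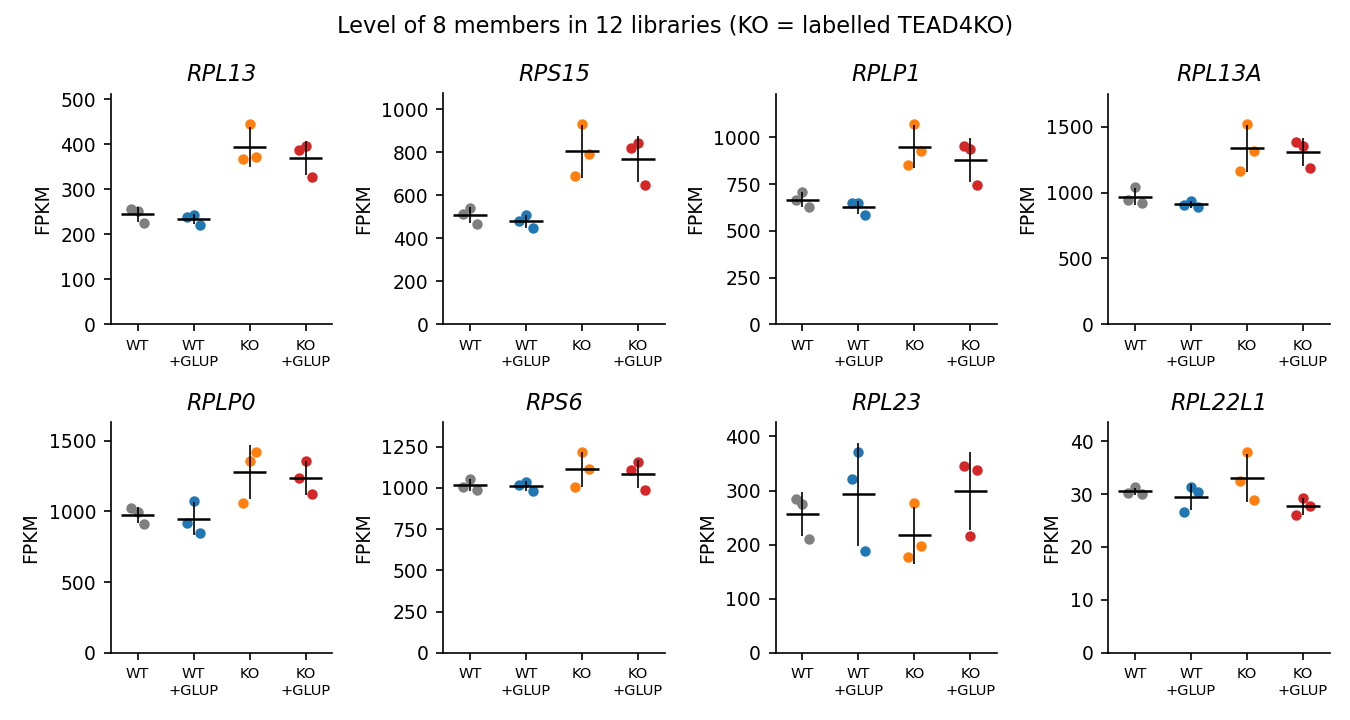
Level in FPKM on a linear axis from 0 of 8 members in the 4 groups (KO, labelled TEAD4KO), with a point per library, a bar at the mean and a line of 1 SD to each side (n = 3). RPL13, RPS15, RPLP1 and RPL13A separate WT from TEAD4KO libraries without overlap, RPS6 and RPL22L1 do not, and RPL23 spreads widely within groups.

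Of the members known for roles outside the ribosome, RPL5, RPL11, RPS6, RPS3, RPSA and RPS27A were not called in either TEAD4KO comparison. RPL5 read 748, 759.7 and 741 FPKM in untreated WT and 736, 890.0 and 846 in untreated TEAD4KO libraries, and RPL11, which with RPL5 binds MDM2, 652, 709 and 661 and 682, 864 and 759. The groups of both overlapped without and with GLUP. RPS6 had group means of 1018 ± 35.03 and 1112 ± 106 FPKM (SD, n = 3) in untreated WT and TEAD4KO libraries, RPS3, which also acts in DNA repair, 782 ± 8.38 and 889.9 ± 119.6, RPSA, also known as a laminin receptor, 955 ± 19.9 and 1113 ± 119.7, and RPS27A 511 ± 8.98 and 592 ± 74.3. RPSA and RPS27A did not overlap between genotypes without treatment, yet their limma adjusted p stood at 0.195 and 0.200.

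Values without overlap were common among the members. In 43 of 80 all untreated TEAD4KO libraries were above all untreated WT libraries and in 0 below, against 18.3% of all rows that were higher in this way. With GLUP 35 were higher and 0 lower, against 16.7% of all rows. Since all members of a library share that library's scaling and composition, these counts do not come from separate measurements.

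**Figure D3:**
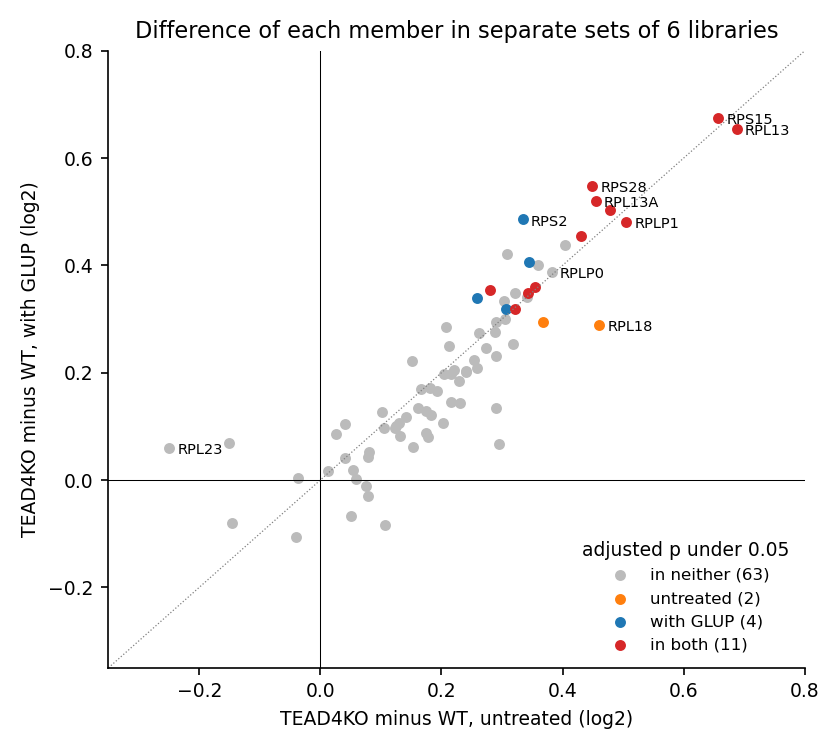
Difference between TEAD4KO and WT libraries (log2) for each of the 80 members, without treatment on the horizontal and with GLUP on the vertical axis, coloured by where the adjusted p was under 0.05, with equality dotted. The 11 members called in both lie at the upper right, led by RPL13 and RPS15, and 63 members were called in neither.

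The size of the difference was ordered by base composition within the family. The members were split in 3 by the GC content of their transcripts. The 27 members with the lowest GC content (39.6% to 46.7%) had median log2 differences of 0.12 without and 0.069 with GLUP, the 27 in the middle 0.21 and 0.17, and the 26 with the highest (52.1% to 62.4%) 0.35 and 0.36. Of the 13 members that rose without GLUP 12 were among those of highest and 0 among those of lowest GC content, and of the 15 with GLUP 11 and 1. Across the 80 members Spearman's rho between GC content and log2 difference was 0.70 without and 0.75 with GLUP. Over the 11077 tested rows with a reference transcript it was 0.30 and 0.21. For transcript length, rho was -0.48 and -0.44 over these rows, but -0.018 without and -0.0996 with GLUP across the 80 members. Genes are not independent replicates, so these are descriptions.

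Libraries labelled TEAD4KO differed from WT in how the level of all other genes depended on transcript length. The slope of log2 level on length against the mean library was negative in 4 of the 6 TEAD4KO libraries (-0.11 to -0.05 per doubling of length) and positive in the other 2, TEAD4KO untreated replicate 1 and TEAD4KO with GLUP replicate 16, and in all 6 WT libraries (0.01 to 0.07). The members' median was 0.12 to 0.30 in the 4 libraries with a negative slope and -0.21 to -0.01 in the 8 with a positive one. A spline of GC content and length, fitted over all rows, was therefore also taken from each library. The median of the members then fell to 0.13 without and 0.087 with GLUP, and 66 and 56 members stayed positive. The calls changed less, with 14 members higher without GLUP (background 3.17%) and 18 with GLUP (background 3.71%; 18 with the replicate block as well, background 3.54%). Of the 13 members called without GLUP 10 were called again, RPL18, RPLP2 and RPS19 being lost, and of the 15 with GLUP all 15, or 14 with the block, RPLP2 being lost. RPL13 kept log2 differences of 0.65 and 0.62, while RPS15 went to 0.43 and 0.45. Among the members an order by GC content remained after this correction, with a rho of 0.53 without and 0.68 with GLUP, and medians from lowest to highest GC content of 0.035, 0.10 and 0.22 without and -0.032, 0.083 and 0.24 with GLUP. The part of library composition in the remaining difference was not tested.

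**Figure D4:**
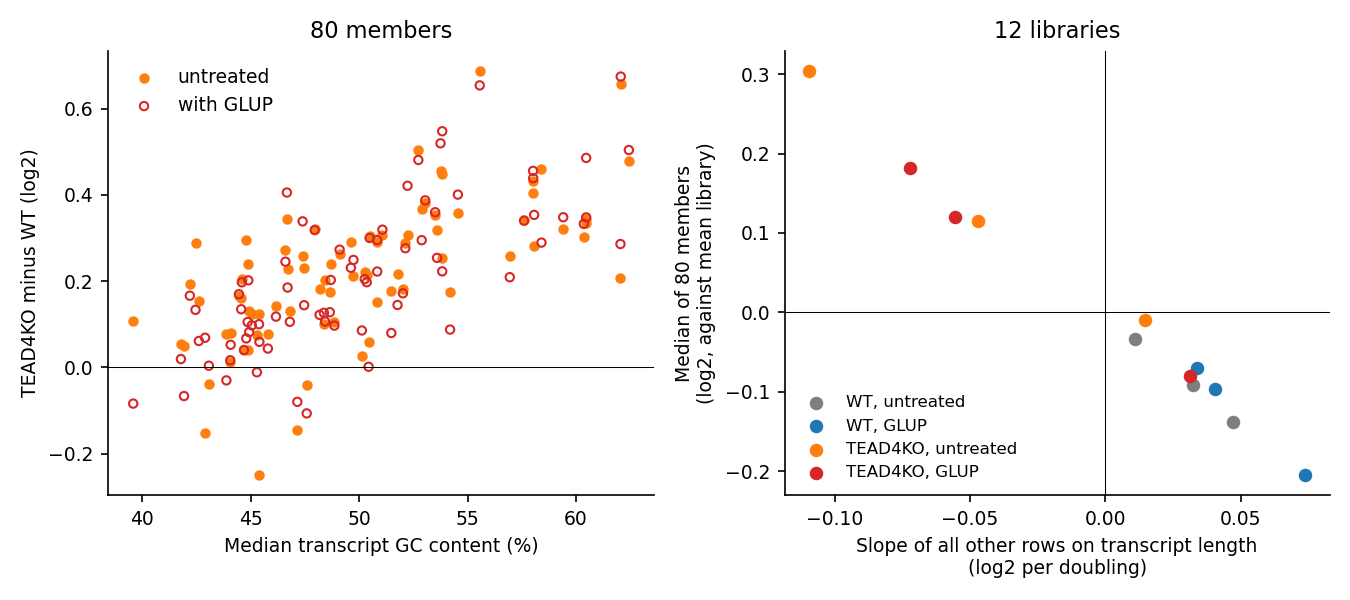
Left, the log2 difference between TEAD4KO and WT of the 80 members against the median GC content of their transcripts, without treatment (filled) and with GLUP (open). Right, for each of the 12 libraries, the median of the members (log2, against the mean library) against the slope of all other rows on transcript length: the 4 libraries left of 0 are all labelled TEAD4KO and hold the 4 highest medians.

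Starts and motifs were compared in the same way. The 58 members with a TOP tract had median log2 differences of 0.22 without and 0.20 with GLUP, with 10 and 11 higher calls, and the other 22 had 0.21 and 0.14, with 3 and 4. Among the 17 members called in either comparison 2 had CATTCC near the start (11.8%), against 6.35% of the 63 others and 9.59% of all windows.

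In the main fit few members ran against the direction of the family, and none of them was called. After the correction for GC content and length 14 were negative without and 24 with GLUP. Under quantile normalization 32 and 40 were negative, with 2 called lower in each comparison. Among those with negative differences in the main fit were RPL23, RPL37, RPL39 and RPS29 without treatment, and RPL22, RPL7L1, RPL22L1, RPS27L and RPS29 with GLUP. RPL23, another member that can bind MDM2, read 284, 275 and 209.7 FPKM in untreated WT and 177, 277 and 197 in untreated TEAD4KO libraries, and 321, 371 and 187 and 345, 217 and 338 with GLUP, with libraries of every group spread across the same range. RPL23 had one of the largest spreads within groups of all members, an SD of 0.38 on the log2 scale against a median of 0.12 for members and for all rows tested.

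Several members have a paralogue that can replace them in the ribosome. RPL22L1 made up 11.6% to 14.2% of the summed level of RPL22 and RPL22L1 in the 12 libraries, and RPL22L1 itself read 30.3, 31.3 and 29.9 and 26.7, 31.3 and 30.4 FPKM in WT and 32.5, 37.9 and 28.9 and 26.1, 29.3 and 27.7 in TEAD4KO libraries, each without and then with GLUP. These groups overlap. RPL26L1 took 11.3% ± 0.232 (SD, n = 3) of its pair in untreated WT and 12.9% ± 0.401 in untreated TEAD4KO libraries, and 11.1% ± 0.747 and 13.3% ± 0.428 with GLUP, without overlap between genotypes in either case. In TEAD4KO against WT libraries with GLUP, RPL26L1 was higher by 0.34 ± 0.08 on the log2 scale (limma adjusted p = 0.0240). RPL26 read 849 ± 6.58 FPKM in WT and 877 ± 93.2 in TEAD4KO libraries with GLUP (SD, n = 3). RPS27L, a p53 target, stayed between 6.52 and 8.70 FPKM, at most 1.06% of its pair with RPS27, and RPL7L1, which acts in ribosome assembly, between 71.8 and 80.3 FPKM beside an RPL7 of 652 to 901. RPL39L, known from testis, was listed at 0 in all 12 libraries beside an RPL39 of 499.7 to 656 FPKM, and RPL3L, known from muscle, and RPL10L, known from testis, reached at most 0.249 and 0.707 FPKM. RPL10 rose without GLUP, from 1016, 1000.2 and 917 to 1105, 1372 and 1323 FPKM (adjusted p = 0.0326), and RPL3 was not called.

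The second question was what GLUP did to these genes. No member was called in WT cells (background 0.00891%, 1 row) or in TEAD4KO cells (background 0.0445%, 5 rows), nor over both genotypes together (0.258%), nor in the interaction (0.00891%). At an unadjusted p under 0.05, limma gave 0, 3, 3 and 0 members in these 4 comparisons, and 3.43%, 6.38%, 7.14% and 2.53% of all rows. Most differences were small and negative, with 73 of 80 below 0 in WT and 75 in TEAD4KO, but 52 and 60 after the correction for GC content and length and 53 and 52 under quantile normalization. The median was -0.049 in WT and -0.055 in TEAD4KO, against 0.0088 and -0.017 for all rows. It was -0.017 and -0.029 after that correction and -0.0082 and -0.011 under quantile normalization. The whole range of members was -0.18 to 0.15 in WT and -0.24 to 0.46 in TEAD4KO. Groups did not overlap, with GLUP lower, in 3 members in WT (RPL26, RPL29 and RPS19; background 7.16% of all rows) and in 1 in TEAD4KO (RPL7L1; background 3.98%), and none was higher in this way. The size in WT and the direction in TEAD4KO rested on single libraries. In WT the median went to -0.012, with 49 members below 0, without WT with GLUP replicate 16, and to -0.02, with 56, without WT untreated replicate 2. In TEAD4KO it turned to 0.022 without TEAD4KO with GLUP replicate 16, and to 0.021 without TEAD4KO untreated replicate 2.

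In WT the smallest p among negative differences was that of RPS2, with 2281, 2305 and 2115 FPKM without and 1965, 2166 and 1796 with GLUP. These groups overlap, and the log2 difference was -0.18 ± 0.10 (limma adjusted p = 0.999). Among positive ones it was RPS27L, 0.10 ± 0.11 (adjusted p = 0.999). In TEAD4KO it was RPL7L1, with 79.6, 79.95 and 80.3 FPKM without and 73.5, 71.8 and 72.1 with GLUP, a difference of -0.14 ± 0.05 (adjusted p = 0.632), and, on the positive side, RPL23 with 0.46 ± 0.25 (adjusted p = 0.827). RPL7L1 is the member with the smallest spread within groups, an SD of 0.03 on the log2 scale, and its untreated TEAD4KO values were all above every other group. Over both genotypes the same 2 genes led, RPL7L1 with -0.10 ± 0.03 and RPL23 with 0.30 ± 0.17 (limma adjusted p = 0.513 and 0.772). In the interaction RPL34 at -0.23 ± 0.15 and RPS2 at 0.15 ± 0.15 had the smallest p in each direction (adjusted p = 0.9998 for both).

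**Figure D5:**
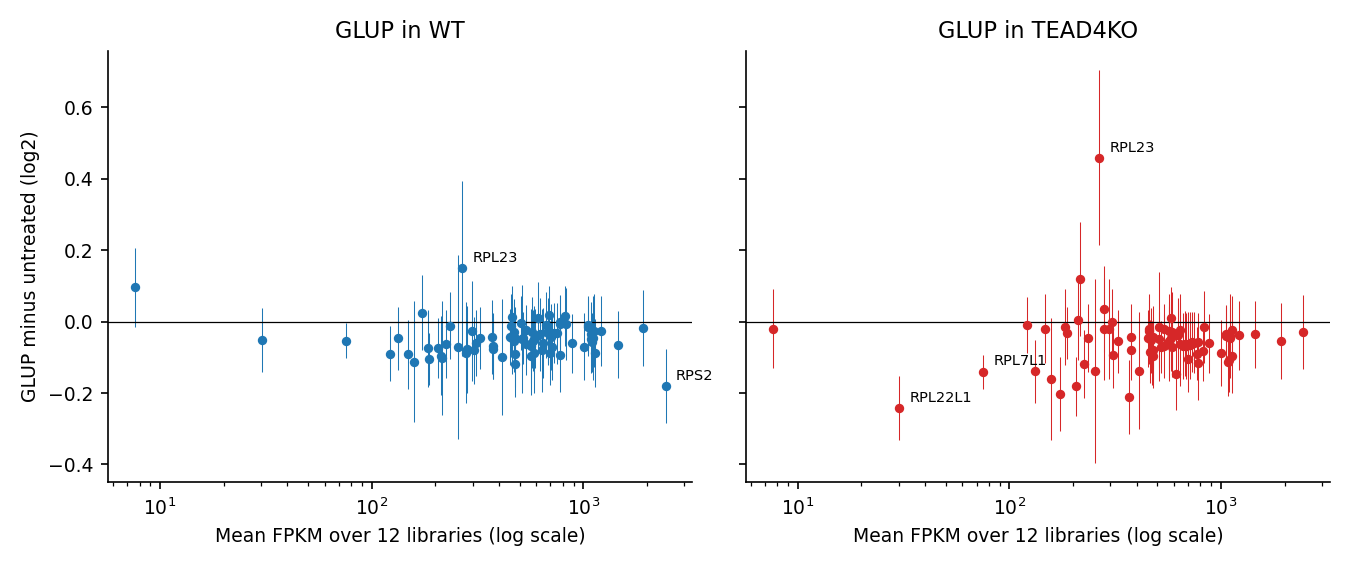
Difference between GLUP and untreated libraries (log2, with 1 SE to each side) for each of the 80 members against its mean level (log axis), in WT on the left and in TEAD4KO on the right. Of the members 73 and 75 lie below 0, none was called, and the error of RPL23 is among the widest.

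Genes that work with the members were counted against the same background of 4.92% of all rows called higher without and 4.91% with GLUP. Rises and falls in these lists are those of TEAD4KO against WT libraries. Of 27 translation factors and related genes, many of them TOP genes, only EEF1D, a subunit of elongation factor 1, rose (3.70% of the list in each comparison), from a mean of 106 to 125 FPKM without and from 101 to 119.8 with GLUP (log2 differences 0.23 and 0.25, limma adjusted p = 0.0413 and 0.0272), and none fell. The list's median was 0.11 without and 0.12 with GLUP. Of 62 ribosome biogenesis genes 2 rose without (3.23%) and 7 with GLUP (11.3%) and 0 fell, with medians of 0.033 and 0.068. Among them IMP3, of the small subunit processome, was higher in TEAD4KO by 0.45 without and 0.51 with GLUP on the log2 scale (limma adjusted p = 0.0160 and 0.00807). NOC4L was higher by 0.38 without GLUP (adjusted p = 0.0329). In TEAD4KO against WT libraries with GLUP, BOP1, of large subunit maturation, was higher by 0.48 (adjusted p = 0.00417).

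Of 15 RNA polymerase I genes none was called in either comparison, although POLR1B, a core subunit named here after its values were seen, passed with GLUP after the correction for GC content and length (limma adjusted p = 0.0240). Of 25 regulators of ribosomal protein synthesis EIF4EBP1, a repressor of cap-dependent translation, was higher in TEAD4KO by 0.37 without GLUP (limma adjusted p = 0.0303). LARP4 was lower by 0.33 without GLUP (adjusted p = 0.0492). EIF4EBP2 was lower in TEAD4KO than in WT libraries by 0.23 with GLUP present (adjusted p = 0.0496). Of 21 p53 targets TP53I3 alone rose, by 0.29 without GLUP (adjusted p = 0.0484), and none did with it. After the correction for GC content and length, EEF1D, NOC4L, EIF4EBP1, LARP4, EIF4EBP2 and TP53I3 no longer passed, nor did IMP3 without GLUP, while IMP3 and BOP1 passed with GLUP. Of the ribosome biogenesis genes 0 were then higher without and 7 with GLUP (11.3%, background 3.71%), 4 of the 7 being among those called before it. GLUP gave 0 calls in each of these lists in WT and in TEAD4KO.

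The mitochondrial ribosomal protein genes also gave calls between TEAD4KO and WT libraries. Of 76, 13 rose (17.1%, background 4.92%) and 1 fell without GLUP, and 11 rose (14.5%, background 4.91%) and 0 fell with it, with medians of 0.16 and 0.19 against 0.22 and 0.20 for the cytosolic members. Their level is far lower, at a median of 31.7 FPKM over genes, and they largely lack the TOP tract, while their transcripts are also short, with a median of 1105 bases. Compared with WT, TEAD4KO libraries were higher in MRPL41 by 0.59 without and 0.79 with GLUP (limma adjusted p = 0.0162 and 0.00329). They were higher in MRPL52 by 0.54 without GLUP (adjusted p = 0.00649) and in MRPL55 by 0.63 with GLUP present (adjusted p = 0.0168). After the correction for GC content and length 8 of 76 were higher without (10.5%, background 3.17%) and 5 with GLUP (6.58%, background 3.71%), with medians of 0.094 and 0.11, and MRPL41 no longer passed without GLUP. Whether the lists differ from the members was not tested.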

How the data were processed

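RNA of 12 HGC-27 libraries, 3 per group, was examined. The authors deposited 1 table of FPKM values with a row per Ensembl gene and a column per library, without pooling. The submitters' processing notes name HISAT2, Cufflinks, RSEM and hg19, with no roles or versions. FPKM divides by transcript length and by the mapped total of a library, so a change in abundant genes shifts all others, and trends with length or GC content stay in the values. The steps of low values did not give whole reads (the most common ratio held at most 0.511% of rows), so no count model was used.

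log2(FPKM + 1) was analysed for rows whose mean was 1 FPKM or more. A 4-group model was fitted to all 12 libraries with limma 3.58.1 in R 4.3.3 (eBayes with trend, two-sided, no covariates). Benjamini-Hochberg adjustment of p-values ran over all 11225 rows within each of 6 comparisons. Fold changes are on this log2 scale and understate those of low genes. A call needed an adjusted p under 0.05. The fit was tested on simulated data with noise drawn independently for each row and library. Deviations shared by the rows of a single library were not simulated, so calls that rest on them were not checked. Symbols (96.5% of rows), transcript lengths, GC content and starts came from GENCODE release 44 on GRCh37. The correction for GC content and length took natural splines with 5 degrees of freedom from each library.

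Genes were named by a rule: paralogue pairs, 11 members with known roles, the 5 largest called rises and falls of each comparison or else the smallest p in each direction, the 5 highest and 5 lowest members, and up to 2 called genes per direction of each other list in the TEAD4KO comparisons. Some genes that this rule named, and results that need them, are not reported here, although counts and medians over the members include them. Members and lists were chosen with earlier results of these data known. Same-numbered GLUP libraries of both genotypes deviated together (correlations over genes of 0.106, 0.152 and 0.336), so their numbers were taken as pairs. Those of untreated libraries gave correlations of -0.06, 0.203 and -0.01 and are not shown to be pairs. The blocked fit was nevertheless 1 model of all 12 libraries with a block for every number. Its estimate of spread for the comparison with GLUP thus also rests on the untreated blocks. Across numbers, WT 14 and TEAD4KO 15 with GLUP correlated at 0.134, and WT 15 and TEAD4KO 14 at 0.116. Both lay above the same-number value of 14, so numbers 14 and 15 are not shown to be pairs. Only 16 stood apart from the others (-0.185 to -0.245). Alternatives were another pseudocount, filters, scalings and weights, the replicate block, the corrections, a fold limit, each library left out and, added after the data were seen, TEAD4KO libraries left out by the sign of their length slope. Coordinates are 1-based on GRCh37.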

Additional observations from a re-analysis of the deposited data

How the results depend on the processing

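The median of the members in the TEAD4KO comparisons kept its sign under every alternative run, and no member was called for GLUP or for the interaction except where the TEAD4KO libraries with a negative length slope were left out (1 call each in TEAD4KO, over both genotypes and in the interaction). The number of members called moved widely. Without GLUP, 13 members became 55 without the TEAD4KO libraries of positive length slope, 32 with the replicate block (whose numbers do not pair untreated libraries), 25 with array weights, 8 with eBayes without trend, 6 with equal totals without members, 5 with median-ratio scaling, 3 with no filter on low values, 0 with a fold over 2, and, without the TEAD4KO libraries of negative length slope, 9 higher and 1 lower. With GLUP, 15 became 52 without the libraries of positive and 3 without those of negative length slope, 40 with array weights, 29 with the replicate block, 9 with equal totals without members, 9 with median-ratio scaling, 7 with no filter and 0 with a fold over 2. Without GLUP, leaving out 1 library gave 1 (WT untreated replicate 3), 4 (WT untreated 1), 7 (WT untreated 2 or WT with GLUP 14), 8 (WT with GLUP 15), 3 (TEAD4KO untreated 2), 38 (TEAD4KO untreated 1) or 29 members (TEAD4KO with GLUP 16). With GLUP it gave 4 (TEAD4KO with GLUP 14 or 15, WT with GLUP 16), 7 (WT with GLUP 14), 23 or 24 (TEAD4KO untreated 2 or 1) or 38 (TEAD4KO with GLUP 16). The median fell from 0.22 to 0.087 without GLUP and from 0.20 to 0.039 with GLUP where the TEAD4KO libraries of negative length slope were left out, which leaves 1 TEAD4KO library per group, assumed to vary like the others. Under quantile normalization the medians were 0.036 and 0.0013. It called 9 members higher and 2 lower without GLUP, and 14 higher and 2 lower with GLUP. This method by construction equalises the top of each library, where the members lie. Calls over all rows were 90.8% higher without and 84.0% with GLUP, but 70.6% and 73.0% with median-ratio scaling, 59.2% and 63.0% with quantile normalization, and 58.4% and 44.02% with equal totals without members, which shifts the median of all rows to -0.056 and -0.09. Each block holds 1 treatment, so no blocked fit of GLUP effects was possible. Except where a sentence above names it, the cause was not tested. Depth is unknown, and 3 libraries per group limit the precision.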
